A study of Mus musculus with 45 samples.

Results

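Mammary tumors of 2 transgenic mouse models, MMTV-Myc and MMTV-HRas, were compared for DNA copy number across the autosomes. The members were the 10 tumors labelled MMTV-c-Myc (n = 5) or MMTV-H-Ras (n = 5), of 45 tumors from 8 models in the series. In both models the mouse mammary tumor virus (MMTV) promoter drives an oncogene in the mammary epithelium, c-Myc in the first and H-Ras in the second. All 10 were primary invasive tumors of female mice, and the labels name no further allele or agent. The labels give neither age nor strain. Each tumor was hybridized on 1 array, an Agilent 44K comparative genomic hybridization array of 2 colours, against reference DNA. The reference is pooled mouse spleen in the labels, which also name normal mammary tissue for that channel, and spleen of the background strain in the text of the study. The tumors are called Myc 1 to Myc 5 and HRas 1 to HRas 5 in the order of the series. Chromosome 11 was taken only up to the probe that ends at 105561697 (mm8), and its distal part, which starts with the probe at 105724684, was left out. This kept 40149 of 40666 autosomal probes and 2042 of 2057 bins of 1 Mb with at least 3 probes.

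Array comparative genomic hybridization measures how much DNA of each region a tumor holds relative to normal DNA. A chromosome present in 3 copies in every cell, against 2 in the reference, has a log2 ratio of 0.58, and normal cells in the sample bring the value closer to 0. Myc is a transcription factor that drives growth and the cell cycle and can also trigger apoptosis. H-Ras is a small GTPase that, once activated, signals through a cascade of kinases and through PI3 kinase. Gains of whole chromosomes arise when chromosomes are distributed unequally at mitosis, whereas focal amplicons and deletions need breaks within a chromosome.

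The log2 ratios given here are Cy3 over Cy5, taken as tumor over reference, which is opposite to the dyes named in the labels. The direction was chosen with the values known. In the 10 arrays, the authors listed 56 autosomal intervals that had 3 probes or more and whose mean was 0.2 or more in size (17 in MMTV-Myc and 39 in MMTV-HRas tumors), and all 56 had the sign of Cy3 over Cy5. With the dyes as labelled, the sign of every log2 ratio below turns over, and gains and losses change places. Altered shares, segment counts and correlations stay the same. No pair of arrays correlated below -0.3 over the probes (r from -0.22 to 0.58). The noise of a single probe had an SD of 0.17 to 0.22 in log2 ratio in Myc 2 to Myc 5, 0.44 in Myc 1 and 0.23 to 0.29 in the MMTV-HRas tumors. The median Cy3 signal was 8.04 to 16.8 times its background in MMTV-Myc arrays and 4.27 to 8.55 times in MMTV-HRas arrays. The number of arrays and this signal limit the precision. No slide and no scan date held arrays of both models. HRas 2 to HRas 5 shared 1 slide, and each MMTV-Myc tumor had a slide of its own, so batch and model cannot be told apart. The labels do not state that the tumors came from different mice, and p-values measure the spread between these 10 samples only.

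MMTV-HRas tumors carried copy number changes over a far larger share of the genome than MMTV-Myc tumors. A segment, a run of neighbouring probes with one mean, was called gained or lost when its mean was at least 0.2 in size, and a bin took the state of most of its probes. The altered share of the 2042 bins was 7.0%, 0%, 0.049%, 0.637% and 0% in Myc 1 to Myc 5. It was 36.1%, 27.1%, 11.6%, 27.5% and 29.6% in HRas 1 to HRas 5. Every MMTV-HRas tumor thus lay above every MMTV-Myc tumor, and Myc 1 accounted for most of what was altered in its model. With the middle chromosome of each tumor as 0 in place of the array median, Myc 1 rose to 11.5%, just below HRas 3 at 11.6%. Its gained share of 11.51% was then above that of HRas 3, 11.36%. The means were 1.54% ± 3.07 (SD, n = 5) and 26.4% ± 9.04 (SD, n = 5), a difference of -24.8 percentage points (MMTV-Myc minus MMTV-HRas). A two-sided exact permutation test gave p = 0.00794, the smallest that the 252 assignments of 10 tumors allow, and 0.0159 after Benjamini-Hochberg adjustment over 4 measures. With a different background correction (normexp on the raw signals) the difference was -17.9 points with p = 0.0873 in the same exact permutation test.

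**Figure D1:**
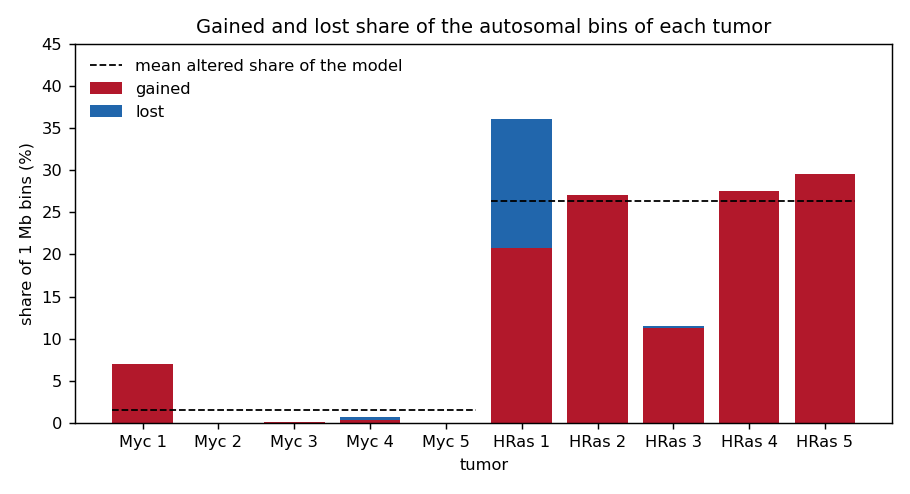
Share of the 2042 autosomal bins called gained (red) or lost (blue) in each of the 10 tumors, in percent, with dashed lines at the mean altered share of each model. The 5 MMTV-HRas bars reach 11.6 to 36.1% and the MMTV-Myc bars 0 to 7.0%.

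Most of the altered bins of MMTV-HRas tumors were gains. The gained share was 20.8%, 27.0%, 11.3%, 27.5% and 29.6% in HRas 1 to HRas 5, against 7.0%, 0%, 0.049%, 0.343% and 0% in Myc 1 to Myc 5 (difference -21.8 points, exact permutation p = 0.00794, adjusted p = 0.0159). Losses were concentrated in 1 tumor. The lost share was 15.4% in HRas 1, 0.245% in HRas 3, 0.049% in HRas 2 and 0% in HRas 4 and HRas 5, and in MMTV-Myc tumors it was 0.294% in Myc 4 and 0% in the others. The models overlapped in this measure (difference -3.08 points, exact permutation p = 0.563). The number of altered segments also overlapped, with 5, 2, 29, 20 and 3 in Myc 1 to Myc 5 and 25, 13, 54, 29 and 28 in HRas 1 to HRas 5 (exact permutation p = 0.0714, adjusted p = 0.0952). Many of these were of 5 probes, the shortest allowed, including 23 of the 29 in Myc 3 and 31 of the 54 in HRas 3. Segments of at least 50 probes numbered 2, 0, 0, 3 and 0 in MMTV-Myc tumors and 24, 7, 7, 12 and 11 in MMTV-HRas tumors.

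The changes of MMTV-HRas tumors were mostly those of whole chromosomes. A chromosome was counted as wholly gained or lost when segments of that state covered at least 90% of its probes. Whole chromosomes held 92.4%, 99.8%, 97.9%, 100% and 100% of the altered bins of HRas 1 to HRas 5. Chromosomes 6, 15 and 17 were each gained in 4 of 5 MMTV-HRas tumors, and these were the same 4 tumors for all 3 chromosomes, HRas 1, 2, 4 and 5. HRas 3 gained chromosomes 2 and 18 instead. HRas 1 also gained chromosome 18 and lost chromosomes 4, 12 and 16. HRas 2 also gained chromosomes 1 and 12, HRas 4 chromosomes 1 and 8, and HRas 5 chromosomes 2, 14 and 19. Among the MMTV-Myc tumors, Myc 1 gained chromosome 3, and no other whole chromosome was called in the model with the array median as 0. Over the middle chromosome of the tumor, chromosome 14 of Myc 1 was called gained too.

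**Figure D2:**
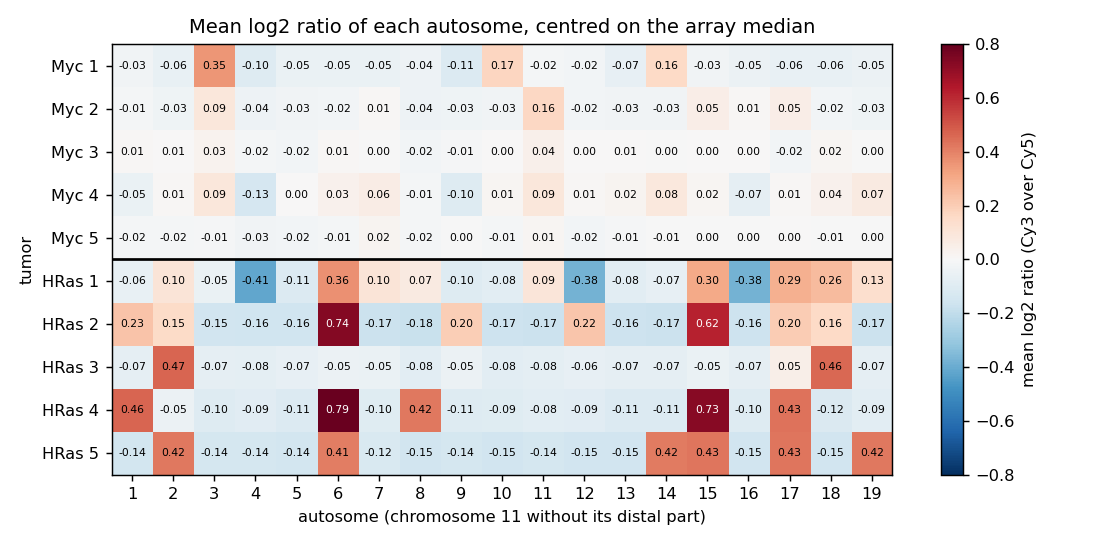
Mean log2 ratio (Cy3 over Cy5, centred on the median of each array) of each of the 19 autosomes (columns) in each of the 10 tumors (rows), with chromosome 11 taken without its distal part and red above 0. Chromosomes 6, 15 and 17 stand out in HRas 1, 2, 4 and 5, and the highest MMTV-Myc values are 0.35 on chromosome 3 and 0.17 on chromosome 10 in Myc 1, and 0.16 on chromosome 14 in Myc 1 and on chromosome 11 in Myc 2.

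Recurrence by bin gave the same picture. Of the 2042 bins, 300 (14.7%) were gained in 4 MMTV-HRas tumors, and they were all 132 bins of chromosome 6, all 85 of chromosome 15 and all 83 of chromosome 17. No bin was gained in all 5, and 1002 bins were gained in none. In MMTV-Myc tumors 151 bins were gained in 1 tumor and none in 2 or more. No bin was lost in more than 2 tumors of either model.

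Chromosome 6 carries Met, Braf and Ccnd2 among other genes of growth signalling. Its mean log2 ratio was 0.36, 0.74, -0.05, 0.79 and 0.41 in HRas 1 to HRas 5. In Myc 1 to Myc 5 it was -0.05, -0.02, 0.01, 0.03 and -0.01. The 4 tumors with the gain lay well above every MMTV-Myc tumor, and HRas 3 lay within the MMTV-Myc range. The means were 0.45 ± 0.34 in MMTV-HRas and -0.01 ± 0.03 in MMTV-Myc tumors (SD, n = 5 each), and the difference of -0.46 did not pass the threshold (exact permutation p = 0.0397, adjusted p = 0.0942 over 19 autosomes). Without HRas 3 it was -0.58 (exact permutation, adjusted p = 0.0251). The smallest exact permutation p possible with these tumors is 0.00794. An autosome can therefore pass over 19 autosomes only where several reach that p or come close to it. Passing or not depends on the other autosomes too, here and for the chromosomes below. The gain spanned the whole length in each of the 4 tumors. In HRas 5 chromosome 6 was 1 segment of 2391 probes at 0.41. In HRas 4 a stretch of 9 probes at chr6:25797834-28373402 reached 1.28, between segments of 0.77 and 0.79.

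Chromosome 15 carries the mouse's own Myc gene. Its mean log2 ratio was 0.30, 0.62, -0.05, 0.73 and 0.43 in HRas 1 to HRas 5 and -0.03, 0.05, 0.00, 0.02 and 0.00 in Myc 1 to Myc 5. HRas 3 again lay with the MMTV-Myc tumors, below all 5 of them. The difference of -0.40 did not pass the threshold (exact permutation p = 0.0476, adjusted p = 0.101), and it was -0.51 without HRas 3 (exact permutation, adjusted p = 0.0251). The gain was not even along the chromosome in 2 tumors. In HRas 1 the proximal segment of 680 probes, up to 73153063, had a mean of 0.39, and the distal segment of 950 probes had 0.24. In HRas 4 a segment of 294 probes at chr15:91904744-101952511 had a mean of 0.45, between 0.79 on its proximal side and 0.83 on its distal side. This less gained stretch held Wnt1, Wnt10b and Krt18.

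Chromosome 17 carries Ccnd3, Notch3, Msh6 and Vegfa. Its mean log2 ratio was 0.29, 0.20, 0.05, 0.43 and 0.43 in HRas 1 to HRas 5 and -0.06, 0.05, -0.02, 0.01 and 0.00 in Myc 1 to Myc 5. HRas 3 lay at 0.049, below the highest MMTV-Myc tumor, Myc 2 at 0.054. The difference was -0.28 (exact permutation p = 0.0159, adjusted p = 0.0503), and -0.34 without HRas 3 (exact permutation, adjusted p = 0.0251). It passed without any other 1 of the MMTV-HRas tumors too (exact permutation, adjusted p = 0.0431 each) and with the median over probes (-0.28, adjusted p = 0.0302). In HRas 1 the chromosome alternated between higher and lower segments, at 0.38, 0.20, 0.42, 0.22 and 0.38 from its first probe to its last. Such steps were not limited to its gained chromosomes. Its lost chromosome 12 had segments at -0.36, -0.52 and -0.25, and the cause was not tested. In HRas 2 it was a single segment of 1728 probes at 0.20, at the limit of a call.

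**Figure D3:**
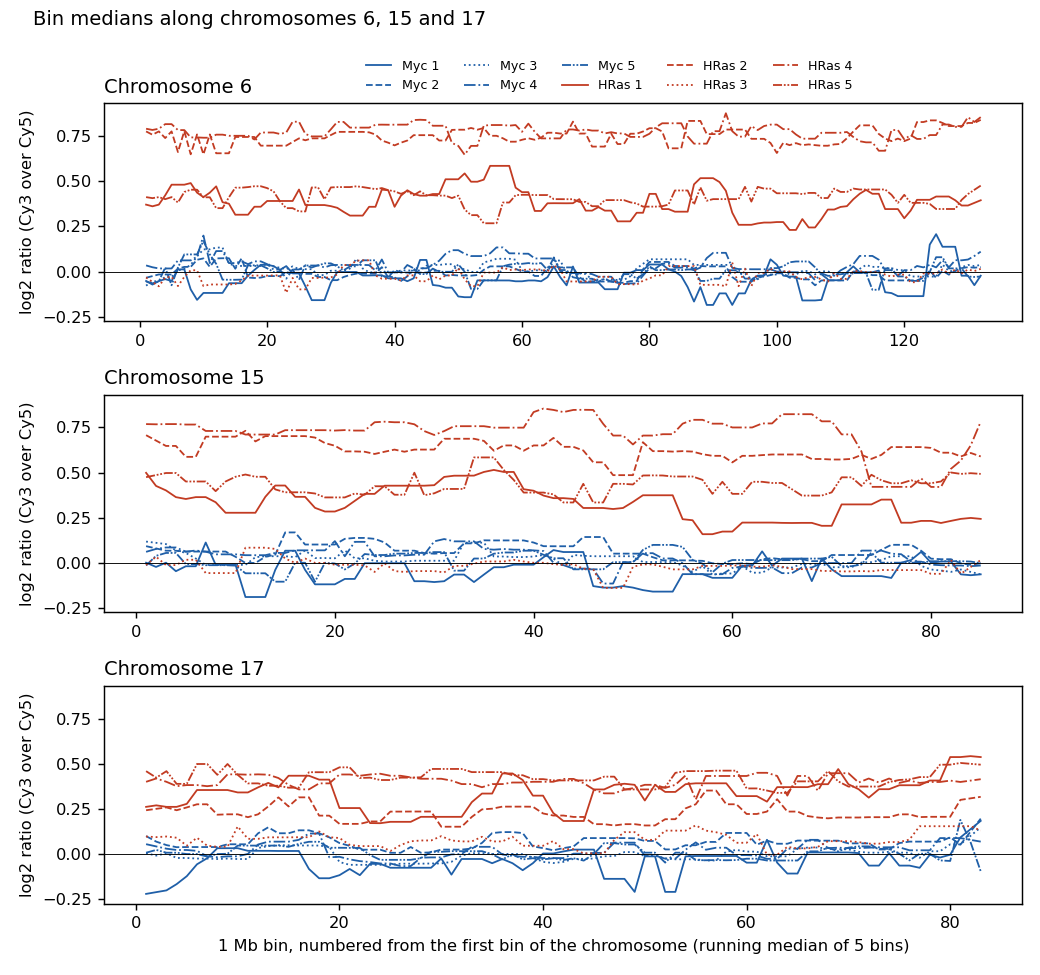
Median log2 ratio (Cy3 over Cy5) of the 1 Mb bins along chromosomes 6, 15 and 17, numbered from the first bin and smoothed with a running median of 5 bins, with 1 line per tumor, MMTV-Myc in blue and MMTV-HRas in red. Lines of HRas 1, 2, 4 and 5 run above those of all MMTV-Myc tumors along most of each chromosome, HRas 3 runs with the MMTV-Myc tumors, and HRas 4 drops near the distal end of chromosome 15.

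The array median, used as 0, lay above the middle of the chromosome means in every MMTV-HRas tumor. This middle value of the 19 chromosome means was -0.05 to -0.16 in MMTV-HRas tumors and -0.05 to 0.01 in MMTV-Myc tumors. With the array median as 0, the autosomes past adjusted p of 0.05 were chromosomes 3, 5, 10 and 13 (21.1% of the 19), all higher in every MMTV-Myc tumor (exact permutation p = 0.00794, adjusted p = 0.0377 each). None passed with loess, with normexp or when any 1 MMTV-Myc tumor was left out. Chromosomes 3, 5, 10 and 13 all passed when any 1 MMTV-HRas tumor was left out, among 7 called autosomes, or 8 without HRas 3. With this middle chromosome as 0, chosen after the data were seen, chromosomes 2, 6, 10 and 17 passed. Chromosomes 2, 6 and 17 were then lower in every MMTV-Myc tumor, by differences of -0.33, -0.55 and -0.37, and chromosome 10 was higher by 0.06 (exact permutation, adjusted p = 0.0377 each). The difference of chromosome 15 was -0.49 (exact permutation, adjusted p = 0.0905). Chromosomes 3, 5 and 13 had differences of 0.12, 0.003 and 0.01 on that scale and did not pass. With the highest point of the density of each array as 0, no autosome passed. The sets called with the array median and with the middle chromosome as 0 share chromosome 10 alone. There Myc 1 had the amplified segments described below, and the other tumors lay between -0.03 and 0.00 over the middle chromosome.

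The size of the gains differed between tumors and, in a pair of them, between chromosomes. The values that follow are levels over the middle chromosome of the same tumor. In a bulk tumor sample, a change in fewer cells and a smaller change per cell cannot be told apart. In HRas 5 the 6 gained chromosomes lay together, with chromosome 6 at 0.55, chromosome 15 at 0.57 and chromosome 17 at 0.57, and chromosomes 2, 14 and 19 at 0.56. Each was close to the 0.58 of 3 copies against 2.

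In HRas 4 chromosomes 6 and 15 lay at 0.88 and 0.82, which is 84.1% and 76.5% more DNA than the middle chromosome. Chromosomes 1, 8 and 17 of that tumor lay lower, at 0.55, 0.51 and 0.52 (46.8%, 42.6% and 43.6% more). HRas 2 had the same pattern. Its chromosomes 6 and 15 lay at 0.90 and 0.78 (86.2% and 71.4% more), against 0.39, 0.38 and 0.36 for chromosomes 1, 12 and 17 (31.1%, 30.4% and 28.6% more). Chromosomes 2, 9 and 18 of HRas 2, at 0.31, 0.36 and 0.32, were just below the limit of a call on the array median and were called gained over the middle chromosome. In HRas 1 the gains were lower than in HRas 5, at 0.42, 0.36, 0.34 and 0.31 for chromosomes 6, 15, 17 and 18, and its losses of chromosomes 4, 12 and 16 lay at -0.36, -0.33 and -0.33. No test was made between chromosomes of 1 tumor, whose bins are not replicates.

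**Figure D4:**
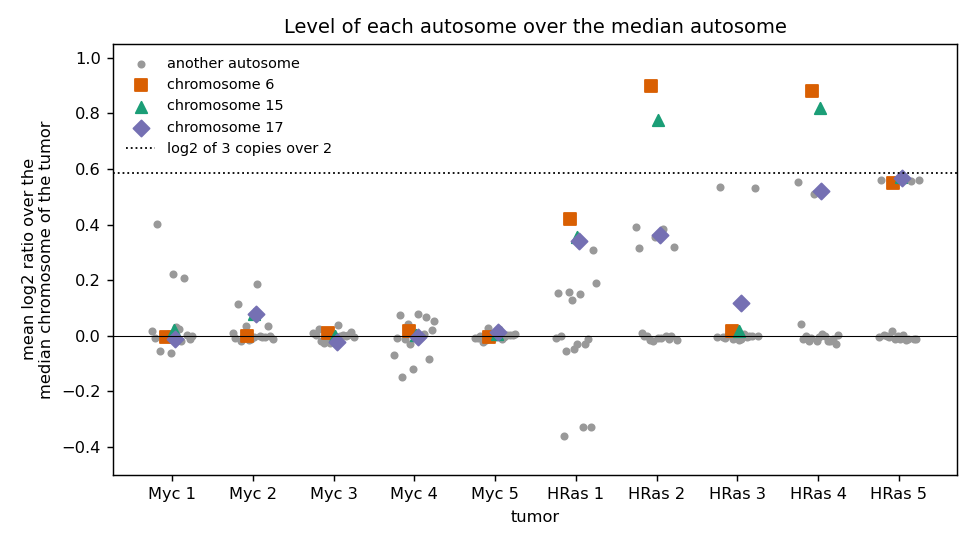
Mean log2 ratio of each autosome over the middle value of the 19 chromosome means of the same tumor, with chromosomes 6 (square), 15 (triangle) and 17 (diamond) marked, the other autosomes in grey and a dotted line at 0.58, the value of 3 copies over 2. Chromosomes 6 and 15 lie at 0.78 to 0.90 in HRas 2 and HRas 4, above every other autosome of those tumors, whereas the 6 gained autosomes of HRas 5 lie together at 0.55 to 0.57.

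At the level of single bins, no bin passed the adjusted threshold. limma called 0 of 2042 bins (smallest adjusted p = 0.0546), and 607 bins (29.7%) had an unadjusted p under 0.05. These 607 included 128 of 132 bins of chromosome 6, 83 of 85 of chromosome 15, 81 of 83 of chromosome 17 and 99 of 156 of chromosome 2, all lower in MMTV-Myc tumors. They also included 81 of 128 bins of chromosome 3, all higher. Without HRas 3, limma called 324 bins at the adjusted threshold, among them all 132 of chromosome 6, 83 of chromosome 15 and 75 of chromosome 17. Over the middle chromosome it called 308, with slide as a random block 287, with array weights 287 and with all 45 tumors in the fit 112. The estimated correlation within slides was -0.079. Only HRas 2 to HRas 5 shared a slide, so this fit cannot separate slide from model. With scan date as a random block, with normexp and with arrays centred on their density peak the count was 0. In 77 bins (3.77%) every MMTV-Myc tumor lay below every MMTV-HRas tumor, and 24, 10 and 33 of them were on chromosomes 6, 15 and 17. In 101 bins (4.95%) every MMTV-Myc tumor lay above, 43 of them on chromosome 3. These counts have the array median as 0, which lay above the middle of the chromosome means in every MMTV-HRas tumor. Of the 308 bins called over the middle chromosome, 1 was higher in MMTV-Myc tumors, on chromosome 4. Neighbouring bins of a chromosome are not independent.

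The bin with the smallest p, chr6:45000001-46000000, lies over Cntnap2, a neuronal cell adhesion gene. Its median log2 ratio was -0.24, -0.23, -0.06, 0.07 and 0.06 in Myc 1 to Myc 5 and 0.45, 0.76, 0.28, 0.49 and 0.46 in HRas 1 to HRas 5. The groups did not overlap, and HRas 3 was the lowest of its model here too (difference -0.57, SE 0.10, limma adjusted p = 0.0546). The largest differences on the 3 chromosomes were -0.72 at chr6:9000001-10000000, -0.67 at chr15:20000001-21000000 and -0.44 at chr17:70000001-71000000. The first and the second bin rest on 3 probes each, as does the bin over Cntnap2. The third holds 10 probes and Mylc2b, a regulatory light chain of myosin, whose own difference was -0.52 (SE 0.12, limma adjusted p = 0.0924).

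For genes, the mean log2 ratio over the probes of each gene name was compared. limma called 0 of 25561 gene names (smallest adjusted p = 0.0742), and 4818 (18.8%) had an unadjusted p under 0.05. With the array median as 0, all MMTV-Myc tumors were below all MMTV-HRas tumors in 699 gene names (2.73%) and above them in 500 (1.96%). The first group included 232 of 1525 gene names of chromosome 6, 114 of 1029 of chromosome 15 and 179 of 1107 of chromosome 17. The median difference was -0.46, -0.40 and -0.29 over the gene names of these chromosomes and -0.01 over all. Without HRas 3, limma called 1284 gene names, with array weights 1761, over the middle chromosome 399 and with all 45 tumors in the fit 249. The last count was 6 with slide as a random block in the same fit. Most gene names, 15013, rest on 1 probe.

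On chromosome 6, 9 of the 10 listed genes had a probe (all but Cdkn1b). All 9 lay in gained segments of the same 4 MMTV-HRas tumors, their differences ranged from -0.47 to -0.18 with a median of -0.43, and 5 had an unadjusted p under 0.05 in limma, against 1049 of the 1525 gene names of the chromosome and 18.8% of all gene names. None separated the models fully, against 232 of the 1525 on the chromosome and 2.73% of all gene names. Among receptors and upstream signalling genes were Met, the receptor of hepatocyte growth factor, Ret, a receptor tyrosine kinase, and Cav1, a coat protein of caveolae, with differences of -0.29, -0.29 and -0.43. Without HRas 4 Met was -0.18 and Ret -0.16. Braf, a kinase that acts just below Ras, was measured by 7 probes. It had values of 0.36, 0.81, 0.01, 0.82 and 0.41 in HRas 1 to HRas 5, and its MMTV-Myc values were -0.14 to 0.11 (difference -0.43, SE 0.15, limma adjusted p = 0.176). The cell cycle genes of the list were Ccnd2, a D-type cyclin, and Foxm1, a transcription factor of mitotic genes, with differences of -0.45 and -0.47. The chromatin and transcription genes were Ezh2, a histone methyltransferase, Etv6, an ETS repressor, and Pparg, a nuclear receptor, with differences of -0.18, -0.32 and -0.47. Leaving out 1 tumor gave -0.51 to -0.20 for Etv6. Ezh2 had the smallest difference of the list, with MMTV-Myc values of 0.13 to 0.35 and MMTV-HRas values of 0.67, 0.61, -0.29, 1.14 and 0.06 in HRas 1 to HRas 5. It was -0.36 without HRas 3 and -0.00032 without HRas 4.

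On chromosome 15, 10 of the 13 listed genes had a probe (all but Pvt1, Eif3e and Krt5). All 10 lay in gained segments of the same 4 MMTV-HRas tumors, their differences ranged from -0.56 to -0.18 with a median of -0.34, and 4 had an unadjusted p under 0.05 in limma, against 616 of the 1029 gene names of the chromosome and 18.8% of all. Every gene of the list overlapped between the models, whereas 114 of the 1029 on the chromosome and 2.73% of all gene names did not and were lower in MMTV-Myc tumors. The Wnt pathway genes were Wnt1 and Wnt10b, ligands that act on mammary epithelium, and Rspo2, an R-spondin that strengthens Wnt signals. Their differences were -0.18, -0.22 and -0.56, and the first and the second rest on 1 probe each. Wnt1 was -0.34 without Myc 1 and -0.07 without Myc 4, and Wnt10b was -0.34 without HRas 3. Rspo2 had values of 0.46, 0.69, -0.17, 0.69 and 0.35 in HRas 1 to HRas 5 and -0.58 to -0.01 in MMTV-Myc tumors. The genes of chromosome structure and repair were Rad21, a subunit of cohesin, and Recql4, a DNA helicase, with differences of -0.39 and -0.52. Ptk2, which encodes focal adhesion kinase, Pdgfb, a growth factor, Ext1, an enzyme of heparan sulfate synthesis, and Krt18, a keratin of luminal cells, had differences of -0.34, -0.25, -0.34 and -0.32. Leaving out 1 tumor gave -0.32 to -0.15 for Pdgfb.

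On chromosome 17, all 10 listed genes had a probe, and all lay in gained segments of the same 4 MMTV-HRas tumors. Their differences ranged from -0.59 to -0.02 with a median of -0.26, and 4 had an unadjusted p under 0.05 in limma, against 496 of the 1107 gene names of the chromosome and 18.8% of all. In 1 of the 10 (against 179 of 1107 on the chromosome and 2.73% of all gene names) every MMTV-Myc tumor lay below every MMTV-HRas tumor. This was Ccnd3, a D-type cyclin, which rests on 1 probe. It had 0.21, 0.50, 0.37, 0.40 and 0.82 in HRas 1 to HRas 5, above the MMTV-Myc range of -0.11 to 0.08 (difference -0.45, SE 0.12, limma adjusted p = 0.112). The receptors Notch3, Notch4 and Igf2r, the last a scavenger of insulin-like growth factor 2, had differences of -0.39, -0.59 and -0.35. Sos1, which loads GTP onto Ras, and Pim1, a survival kinase, had -0.18 and -0.28. Epas1, a hypoxia factor, and Vegfa, an angiogenic factor, had -0.24 and -0.09, and Msh6, a mismatch repair gene, had -0.22. Vegfa turned to 0.003 without HRas 4. Cdkn1a, which encodes the cell cycle inhibitor p21, had a difference of -0.02 from 1 probe, with HRas 2 at -0.57 although its chromosome was called gained.

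**Figure D5:**
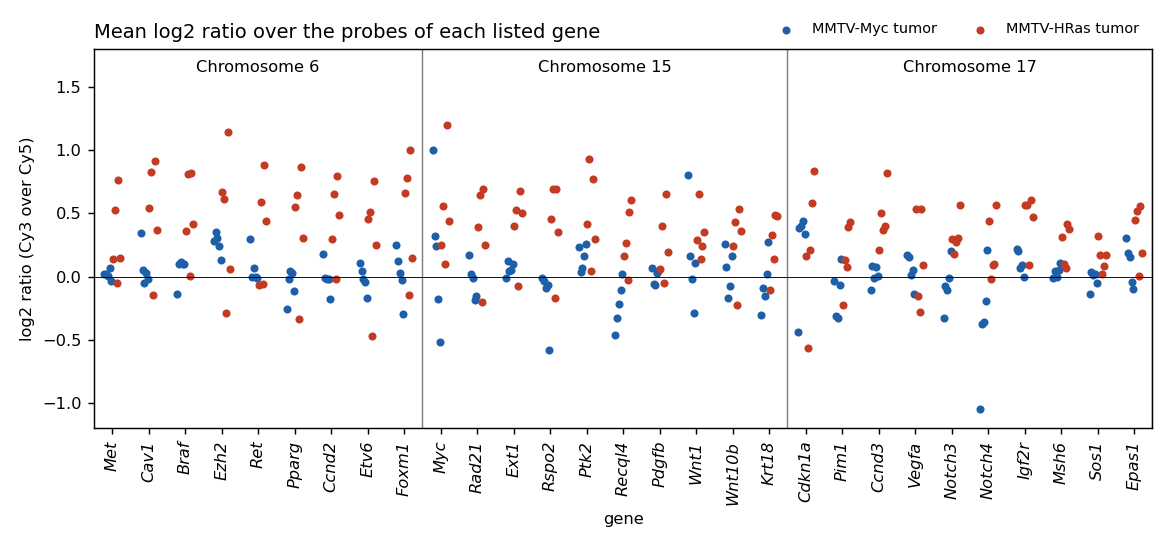
Mean log2 ratio (Cy3 over Cy5) over the probes of each listed gene of chromosomes 6, 15 and 17 that has a probe, with 1 point per tumor, MMTV-Myc in blue and MMTV-HRas in red. The red points of most genes lie above the blue ones with 1 or more low exceptions, and Ccnd3 has no overlap.

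The other lists hold genes from across the genome. Of 19 Ras pathway genes 17 had a probe, their median difference was 0.04, and 3 had an unadjusted p under 0.05 in limma, near the 18.8% of all gene names. The 2 members gained in at least 3 MMTV-HRas tumors were Braf on chromosome 6 and Sos1 on chromosome 17, against 15.3% of all bins. One further member lay lower in every MMTV-Myc tumor (against 2.73% of all gene names), Ralgds on chromosome 2, an exchange factor for Ral. Its values were -0.21 to -0.09 in MMTV-Myc and -0.04 to 0.42 in MMTV-HRas tumors (difference -0.32, SE 0.12, limma adjusted p = 0.189). Pik3ca, the catalytic subunit of PI3 kinase, lies on chromosome 3 and had a difference of 0.56, or 0.37 to 0.75 when 1 tumor was left out. Its lowest values were -1.32 in HRas 3 and -0.90 in HRas 2, and Myc 1, which gained the chromosome, had 0.12 against -0.18 to 0.08 in the other MMTV-Myc tumors. Nras and Shc1, a Ras GTPase and an adaptor, lie on the same chromosome, with differences of 0.18 and 0.30, the latter 0.13 without Myc 1. The whole of chromosome 3 differed by 0.21 with the array median as 0 and by 0.12 over the middle chromosome.

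Of 19 Myc network genes 16 had a probe, with a median difference of 0.04 and none with an unadjusted p under 0.05 in limma, against 18.8% of all gene names. Bcl2, an inhibitor of apoptosis on chromosome 1, lay in gained segments of 2 MMTV-HRas tumors (HRas 2 at 0.24 and HRas 4 at 0.43, difference -0.22, SE 0.11). Mcl1, of the same family, lies on the chromosome 3 gained in Myc 1 (0.15, against -0.34 to -0.14 in the other MMTV-Myc tumors). Of 20 cell cycle and mammary tumor genes 19 had a probe, with a median difference of 0.11 and 1 with an unadjusted p under 0.05 in limma, against the same 18.8%. Rb1, the retinoblastoma gene, and E2f1, its transcription factor partner, lie on chromosomes 14 and 2, with differences of 0.31 and -0.26. Rb1 was 0.17 without HRas 3 and E2f1 -0.14 without HRas 5. Ccnd1 ranged from -1.66 in HRas 3 to 0.39 in HRas 1 on its single probe.

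With the array median as 0, the changes of each MMTV-Myc tumor outside distal chromosome 11 covered at most 7.0% of the bins (11.5% over the middle chromosome). Few of the changes were shared. Myc 2 and Myc 4 had overlapping losses of 5 probes each on chromosome 8, at chr8:19250793-19376364 and chr8:19310059-23212043, near Defb3, Defb7 and Defb8, which encode beta-defensins. The segment means were -0.59 in Myc 2 and -0.49 in Myc 4. The lowest probe of Defb3 lay at -0.13 in Myc 2, and those of Defb8 and Defb7 at 0.07 and 0.12 in Myc 4. The low values thus came from other probes than those of the named genes. Myc 2 and Myc 3 had the same loss at chr12:86519866-86631473, over Jundm2 and Batf. Its lowest probe, of Batf, lay at -2.72 in Myc 2 and -1.64 in Myc 3, against means of -0.72 and -0.50 over the 5 probes. Relative to the surrounding probes these 5 probes lay at -0.65, -0.69, -0.50, -0.32 and -0.29 in Myc 1 to Myc 5. In HRas 1 to HRas 5 they lay at -0.52, -0.24, -0.04, -0.01 and 0.19. Myc 1 and HRas 1, where no loss was called, thus lay below Myc 3. Myc 3 and Myc 4 had the same gain at chr5:138472607-138746091, and HRas 5 had a gain of 5 probes that overlapped it. Over the 12 probes of both gains together, relative to the surrounding probes, the values were 0.33, 0.26, 0.28, 0.32 and 0.15 in Myc 1 to Myc 5, so Myc 1, where no gain was called, was the highest of its model. In HRas 1 to HRas 5 the values were -0.02, 0.17, 0.04, 0.23 and 0.34. Myc 3 also had a gain of 5 probes at chr10:121188180-121484498 (mean 0.65), within a longer gain of Myc 1 given below. Myc 1 gained chromosome 3 as 1 segment of 2171 probes at 0.35, with Veph1, Mlf1 and Dph5 as the genes of its highest probes. Veph1 and Mlf1 had values of 1.65 and 1.51 in Myc 1 but also 1.02 and 1.51 in HRas 4 and 1.53 and 1.06 in HRas 5, where the whole of chromosome 3 was not gained. In HRas 4 a segment of 5 probes at chr3:67446193-67526564 (mean 0.63), which holds Mlf1, was called gained. Myc 1 also had 3 high segments on chromosome 10. The first, chr10:106488974-108388412, had a mean of 1.13 over 24 probes and held Pawr, a pro-apoptotic gene, Syt1 and the myogenic factor Myf6. The second, chr10:116352687-117575704, had a mean of 1.34 over 39 probes, and the third, chr10:119487187-129759311, a mean of 1.25 over 280 probes. They are separated by stretches that were not called.

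The second chromosome 10 segment held Mdm2, the inhibitor of p53, at 1.02 in Myc 1 and between -0.06 and 0.07 in the other MMTV-Myc tumors. Its highest probes belonged to D630029K05Rik, Cpsf6 and Rap1b, a small GTPase, with gene means of 2.31, 2.11 and 1.09 in Myc 1. The third held Cdk4, the kinase of D-type cyclins, at 1.58 in Myc 1 and between -0.09 and 0.23 in the other MMTV-Myc tumors. Its highest probes belonged to the olfactory receptor Olfr807 and to Bloc1s1 and Ctdsp2, at 2.78, 2.43 and 2.35. In MMTV-HRas tumors Mdm2 lay between -0.27 and 0.34 and Cdk4 between -0.64 and 0.28, and no MMTV-HRas tumor was called gained at either gene.

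Myc 4 had the other large segments of its model. Its distal chromosome 4 was lower over 89 probes at chr4:149963109-154338973 (mean -0.30) and over 53 probes at chr4:154393249-155029031 (mean -0.22). The genes of the lowest probes were 2010015L04Rik, A430005L14Rik and Dnajc11 in the first and C1qdc2, B3galt6 and Ccnl2 in the second. Their gene means in Myc 4 were -0.69 to -0.28, and the models overlapped at all 6. Its chromosome 11 was higher over 56 probes at chr11:89109265-94149210 (mean 0.25) and over 30 probes at chr11:103953100-105167234 (mean 0.50), close to the part left out. The genes of the highest probes were Tom1l1, Stxbp4 and Ankrd40 in the first, which takes in only 1 of the 2 probes of Ankrd40, and in the second Mrc2, Tlk2, a kinase of chromatin assembly, and Myl4. Ankrd40 was the only 1 of these 12, which were chosen for the extreme probes of Myc 4, that did not overlap between the models (against 1.96% of all gene names higher in every MMTV-Myc tumor), with 0.02 to 0.20 in MMTV-Myc and -0.42 to -0.05 in MMTV-HRas tumors (difference 0.40, SE 0.11, limma adjusted p = 0.109). Chromosome 11 without its distal part differed by 0.13 with the array median as 0 and by 0.04 over the middle chromosome. Myc 2, 3 and 5 had no segment of at least 20 probes.

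One short gain was called in 4 MMTV-HRas tumors. The 7 probes at chr2:71108286-71277372, over Slc25a12, Hat1 and Metapl1, differed from the surrounding probes by 0.79, 0.57, 0.68, -0.04 and 0.78 in HRas 1 to HRas 5. In Myc 1 to Myc 5 the values were -0.46, -0.07, 0.09, 0.30 and 0.12. HRas 4 lay within the range of the MMTV-Myc tumors. It was singled out after its values were seen and was not tested.

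The probes named for the transgenes did not separate the models. Myc has 1 probe, at chr15:61816154-61816213, with values of 1.00, 0.32, 0.25, -0.18 and -0.52 in Myc 1 to Myc 5 and 0.25, 0.56, 0.10, 1.20 and 0.44 in HRas 1 to HRas 5. Relative to the 17 other probes within 2 Mb, the mean was 0.18 ± 0.57 in MMTV-Myc and 0.14 ± 0.16 in MMTV-HRas tumors (SD, n = 5 each). The difference of 0.04 was smaller than the spread (exact permutation p = 0.881) and was -0.17 without Myc 1. The single Hras1 probe, at chr7:141042967-141043018, lay between -0.17 and 0.17 in all 10 tumors. Whether either probe lies within the DNA of the transgene is not known, so these values check no label.

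Bin profiles were more alike among MMTV-HRas tumors than between the models. Over the 2042 bins, Pearson's r had a median of 0.43 over the 10 pairs of MMTV-HRas tumors, with a range of -0.13 (HRas 3 with HRas 4) to 0.71 (HRas 2 with HRas 4). It had a median of 0.26 over the 10 pairs of MMTV-Myc tumors and 0.008 over the 25 pairs between models. The bins share their probes and base composition across arrays, and these values are a description.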

How the data were processed

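Mammary tumor DNA (5 MMTV-Myc and 5 MMTV-HRas samples) and reference DNA were hybridized on 2-colour arrays. The authors deposited scanner output from Agilent Feature Extraction (10.7 in the labels, 9.5.1.1 in the file headers). The deposited intensity values had been background-subtracted and dye-normalized (linear) by that software per the file headers. Each spot's log10 ratio, as deposited, divides Cy5 by Cy3. A further table deposited by the authors holds intervals with a mean log2 ratio per array, called with ADM-2 at a threshold of 6 after centralization (mm8), which gave the direction and 1 alternative here. Tables of the authors' calls by model were not used.

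The log10 ratios were turned to log2 of Cy3 over Cy5 and centred on the median autosomal probe of each array. Control spots and outlier-flagged spots were left out (0 to 22 spots per array), and spots of a probe were averaged. Between 96.6 and 99.8% of probes were well above background. Arrays were segmented by circular binary segmentation (splits above a statistic of 6, segments of 5 or more probes). For shares and chromosome means, exact permutation tests were used, two-sided. Bins and gene names were compared with limma 3.58.1 (R 4.3.3, Python 3.11.15), contrast MMTV-Myc minus MMTV-HRas, with Benjamini-Hochberg adjustment. Segmentation was tried on simulated arrays and limma on simulated bins, which were independent of each other, unlike neighbouring bins here. Of 88 listed names, 78 had a probe, 86 were RefSeq symbols and 2 matched a synonym. A listed count of names with no overlap has no test.

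The members, lists and tests were chosen with earlier results of these data known. Named genes were the chromosome lists, members of other lists in a called segment, genes at the most different probe of the leading bins, and up to 3 genes with the most extreme probes of each MMTV-Myc segment. After the values were seen, the last were limited to segments of at least 20 probes, and the second to the 4 largest differences of a list, members in large MMTV-Myc segments and members without overlap. Alternatives changed the centre, background correction, intensity dependence, filters, thresholds, segmentation, bin size, genome part, batch terms, weights and tumors. The sequences of probes were not used here, and a few listed genes are not reported here.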

Additional observations from a re-analysis of the deposited data

Results flagged for a closer look

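In 32 of 182 groups of 5 tumors examined, 1 tumor lay apart from the other 4 by a gap past the critical value of Dixon's ratio of gap to range. Chance gives about 1 in 20 groups of independent values. The count is not read against that, as many groups are genes of the Myc 1 segments, most of them named for the highest probes of that tumor.

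Among MMTV-Myc tumors, Myc 1 stood apart in the altered and the gained share, both 7.0% of bins (next tumor 0.637% and 0.343%), and Myc 4 in the lost share, 0.294%. Myc 1 was also the highest on chromosome 3 (0.35) and chromosome 10 (0.17). It was the highest at genes of the chromosome 10 segments, with Pawr at 1.66, Myf6 1.61, Mdm2 1.02, Rap1b 1.09, Cpsf6 2.11, D630029K05Rik 2.31, Cdk4 1.58, Ctdsp2 2.35, Bloc1s1 2.43 and Olfr807 2.78. On chromosome 3 it was the highest at Mlf1 (1.51) and Veph1 (1.65). Outside its called segments it was the highest at Cav1 (0.35) and Ret (0.30) and the lowest at Braf (-0.14) and Cdkn1a (-0.44). Myc 4 was the highest at Tlk2 (0.68), Myc 2 the lowest at Pik3ca (-0.18), and Myc 5 the lowest at Rspo2 (-0.58) and Ankrd40 (0.0185).

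Among MMTV-HRas tumors, HRas 1 stood apart in the lost share (15.4% of bins, next 0.245%), as the lowest on chromosome 4 (-0.41) and as the highest at Myl4 (0.54). HRas 2 was the highest on chromosome 9 (0.20) and HRas 5 on chromosome 14 (0.42). HRas 5 was the lowest at Ccnl2 (-0.67) and HRas 3 at Igf2r (0.0885).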

How the results depend on the processing

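The difference in altered share kept its direction under all 26 alternatives run and passed the threshold in 25, from -44.2 points with calls at 0.15 to -19.6 with calls at 0.3. With normexp background correction it was -17.9 (exact permutation p = 0.0873). Leaving out each tumor gave -28.5 to -22.4. The differences of chromosomes 6, 15 and 17 kept their direction under the alternatives run, and with normexp they were smaller, by over 1.5 times for 6 and 15 (-0.29 and -0.25, with -0.20 for 17). Chromosome 17 passed with the median over probes (-0.28, adjusted exact permutation p = 0.0302), and chromosomes 6 (-0.55) and 17 (-0.37) passed over the middle chromosome. Leaving out each tumor gave -0.58 to -0.37 for chromosome 6, -0.51 to -0.32 for 15 and -0.34 to -0.24 for 17, and of these settings 15 and 6 passed without HRas 3 alone, while 17 passed whichever MMTV-HRas tumor was left out. The count of autosomes was 0 with the density peak as centre, with normexp and with loess, and 0 to 8 without each tumor. It was 0 when any 1 MMTV-Myc tumor was left out, 8 without HRas 3 and 7 without any other 1 of the MMTV-HRas tumors. The count of bins was 35 with loess, 112 with all 45 tumors in the fit, 117 with these and slide as a random block, 287 with slide as a random block (estimated correlation -0.079), 287 with array weights and 308 over the middle chromosome. Leaving out each tumor gave 0 to 324, the last without HRas 3. The count of gene names was 249 with all 45 tumors, 6 with these and slide as a random block, 0 with slide as a random block on the 10 tumors, 1761 with array weights, 5 among gene names with at least 2 probes and 399 over the middle chromosome. Leaving out each tumor gave 0 to 1284, with 7 without HRas 1 and 1284 without HRas 3. With scan date as a random block both counts were 0. The Myc probe against its neighbours ranged from -0.17 without Myc 1 to 0.21. No paired analysis was possible because the replicate numbers follow the order of the series and pair no tumors.

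Differences of named genes turned sign in 37 of the alternatives run on them, all in genes whose models overlapped, and the cause was not tested. Leaving out 1 tumor moved the difference by over 1.5 times in 36 of 66 named genes, which include 4 of 9, 4 of 10 and 2 of 10 on the lists of chromosomes 6, 15 and 17. With the density peak Veph1 was -0.0284. Over the middle chromosome B3galt6 was -0.0128, Mlf1 -0.0058 and Veph1 -0.0649. With normexp Ccnd1 was -0.0579, Dnajc11 0.000319, Mlf1 -0.0382, Tom1l1 -0.0652 and Veph1 -0.0888. With loess Dnajc11 was 0.0838 and Veph1 -0.0144. With array weights Bloc1s1 was -0.0411, Cdkn1a 0.23, Dnajc11 0.019, Mlf1 -0.184 and Veph1 -0.116. With all 45 tumors and slide Dnajc11 was 0.0138. The range over leaving out each tumor was -0.0573 (without Myc 1) to 0.564 for Bloc1s1, -0.0127 (without HRas 3) to 0.501 for Ccnd1, -0.223 to 0.146 (without Myc 1) for Cdkn1a, -0.0459 to 0.0484 (without HRas 3) for Dnajc11, -0.146 (without HRas 1) to 0.328 for Mlf1, -0.0292 (without Myc 1) to 0.435 for Myf6, -0.0276 (without Myc 1) to 0.263 for Rap1b, -0.202 to 0.00306 (without HRas 4) for Vegfa and -0.217 (without Myc 1) to 0.243 for Veph1. Signal over background, lowest in HRas 5, and the single-probe noise, highest in Myc 1, limit how short and shallow a change can be called.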
